A study of Mus musculus with 6 samples.

Results

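The EGF receptor family was described here through 10 genes: the receptor genes Egfr, Erbb2 and Erbb3 and the ligand genes Areg, Ereg, Btc, Epgn, Hbegf, Tgfa and Egf. Every gene probe on the array that carries 1 of these symbols was taken, which gave 20 of the 56605 gene probes, for 10 of the 37325 gene names on the array. Colon tissue with tumors was taken from C57 mice (C57BL/6 in the study's methods) in which colitis-associated colon cancer had been induced with the carcinogen azoxymethane (AOM) and with dextran sodium sulfate (DSS), an agent that inflames the colon. Mice of both groups carried these tumors. The RG@M-γ-CD group of 3 mice was given by mouth regorafenib (RG), a multikinase inhibitor, loaded into a mannose-modified γ-cyclodextrin carrier, and the control group of 3 mice was given PBS by mouth. The labels give neither age nor sex, whereas the study's methods name male mice and give an age range at purchase. By those methods the colons were taken after a period of observation that followed the end of treatment. The RNA is that of whole tumor-bearing tissue, so the signal of tumor cells and of the cells around them is pooled. The question for these genes was whether their mRNA differed between treated and control tumors.

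EGFR, ERBB2 and ERBB3 are membrane receptors that pair with each other when a ligand binds, and the tyrosine kinases inside the cell then start the RAS-ERK and PI3K-AKT cascades. ERBB2 has no ligand of its own and serves as a partner, whereas ERBB3 has a weak kinase and passes the signal on through PI3K. The ligands are made as membrane-bound precursors and are released by ADAM proteases, and in the colon amphiregulin (Areg) and epiregulin (Ereg) are known as growth factors of epithelial repair and of tumors. The pathway is driven at the protein level by ligand release and phosphorylation, which mRNA arrays do not measure.

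The array reads each gene through probes of 60 bases. The probe of Areg, at chr5:91570090-91570149 on the plus strand of mm9, is shown with 1 probe for each of 2 receptors, Egfr at chr11:16783545-16783604 on the plus strand and Erbb3 at chr10:128006424-128006483 on the minus strand, as examples of the stretches of mRNA that were read. The Areg probe is the one its test rests on, whereas those of Egfr and Erbb3 are second probes, which were read beside the brighter ones used for the tests of these genes. None of them carries a marked motif, so all letters are in lower case, 5′ to 3′ along the mRNA.
Areg A_52_P482897: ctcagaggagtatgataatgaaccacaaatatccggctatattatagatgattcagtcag
Egfr A_52_P56471: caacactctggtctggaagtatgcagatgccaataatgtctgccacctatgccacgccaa
Erbb3 A_55_P2119897: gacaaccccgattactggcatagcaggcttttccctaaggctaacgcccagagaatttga

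The genes Epgn, Ereg, Areg and Btc are neighbours on mouse chromosome 5. Their probes span 327 kb, and the probes of Ereg and Areg alone span 47.6 kb. The 250 bases before the start of Areg (RefSeq, GRCm38.p6, chr5:91139349-91139598, plus strand) are shown because Areg is the member whose promoter held the most of the motifs searched. The capitals mark, in order, a cAMP response element (TGACGTCA), a GC box (GGGCGG) and a TATA box (TATAAA).
Areg: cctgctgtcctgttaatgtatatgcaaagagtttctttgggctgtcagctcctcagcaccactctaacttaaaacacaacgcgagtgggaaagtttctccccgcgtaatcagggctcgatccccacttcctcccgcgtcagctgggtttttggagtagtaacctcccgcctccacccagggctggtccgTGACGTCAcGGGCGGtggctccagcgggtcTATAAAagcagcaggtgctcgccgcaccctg
These motifs begin 61, 52 and 31 bases before the start and do not overlap. Searched on both strands, they were found in 1.55%, 32.7% and 12.4% of 32851 promoters of this length, and an AP-1 pattern (TGANTCA) in 6.75%. A promoter could be used for 7 of the 10 genes. Besides Areg, a TATA box was found in Epgn and a GC box in Egfr and Tgfa, and none of the 4 motifs was found in these windows of Btc, Erbb2 and Egf. A match is a run of letters and does not show that a factor binds there.

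Each mouse was measured on 1 one-color array, and all 6 arrays came from 1 slide and 1 scan. The share of gene probes well above background ran from 49.6% to 55.2%, and 0 gene spots were saturated. Values are log2 intensities after subtraction of the 75th percentile over gene probes of the same array, and they can be compared between arrays for 1 probe but not between probes. Of the 10 genes, 9 were tested on their brightest probe that passed the filter on dim probes. Epgn (epigen) was not well above background on any of the 6 arrays, with intensities of 4.08 to 6.43. Of the 20 probes, 15 passed this filter. The other 5 were the Epgn probe, 1 probe each of Btc and Egfr, and 2 probes of Egf, and they were not well above background on any array.

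Before the results, a disagreement over the arrays has to be given. By the deposited labels, RG@M-γ-CD replicates 1, 2 and 3 are arrays 5, 6 and 7, and PBS replicates 1, 2 and 3 are arrays 8, 10 and 11. A clustered heat map in the study places arrays 6, 7 and 8 side by side and arrays 5, 10 and 11 side by side, with neither set named as treated, and the order of its columns comes from the clustering. RG@M-γ-CD replicate 1 and PBS replicate 1 are the arrays that change sides. The labels were followed, and the members' values under the other grouping are given after those by the labels. The slide row held a further imbalance, since PBS replicates 2 and 3 alone were in row 2.

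None of the 9 genes tested differed between RG@M-γ-CD and PBS beyond the spread between mice. In limma, 0 of 9 were past the adjusted threshold of 0.05 and 0 of 9 lay below an unadjusted p of 0.05, where 0% and 2.19% of all 19090 genes tested did. At a fold change of at least 2 with an unadjusted p of at most 0.05 there were 0 of 9, against 0.561% of all genes. The methods' t-test likewise left 0 of 9 at either threshold. In 0 of 9 genes did the 3 arrays of one group all lie above or all below those of the other, a pattern found in 4.57% of all genes. The treated mean was the higher one for 7 genes (47.2% of all genes) and the lower one for 2 (52.8% of all genes), with a median log2 difference of 0.098 against -0.012 over all genes. The adjusted p from limma was 0.99998 for each of the 9 genes. With 3 mice per group, the smallest two-sided p of an exact permutation test is 0.10, and the exact p ranged from 0.4 for Erbb2 to 1 for Areg. In bulk tissue, fewer cells of a type and less RNA per cell cannot be told apart.

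**Figure D1:**
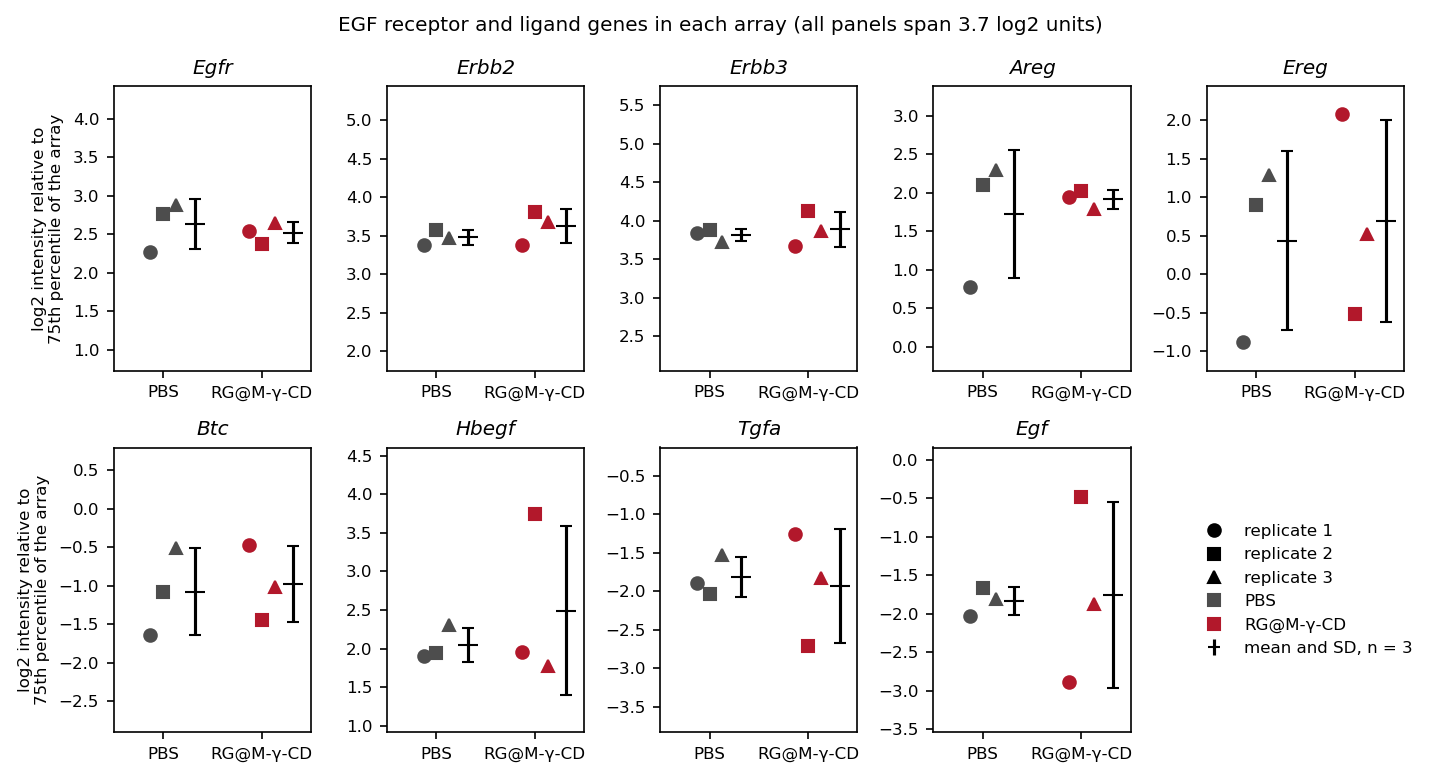
Log2 intensity of the 9 genes tested on each array, relative to the 75th percentile of that array, for PBS (grey) and RG@M-γ-CD (red), with the marker shape giving the replicate and the bar the mean and SD of 3 arrays. The groups overlap in all 9 panels, and the points of Ereg, Hbegf and Egf lie farther apart than those of Egfr, Erbb2 and Erbb3.

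The receptor genes were the steadiest of the family. Egfr encodes the receptor of these ligands. It read 2.55, 2.37 and 2.65 in RG@M-γ-CD replicates 1, 2 and 3 and 2.27, 2.76 and 2.89 in PBS replicates 1, 2 and 3. The lowest and the highest array were both PBS arrays, so the treated values lay inside the range of the controls. The means were 2.52 ± 0.14 and 2.64 ± 0.33 (SD, n = 3 each), a log2 difference of -0.12 (SE 0.21). The 95% interval of the fold ran from 0.650 to 1.31.

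Erbb2, the partner receptor without a ligand, read 3.38, 3.81 and 3.68 in RG@M-γ-CD and 3.38, 3.58 and 3.47 in PBS. RG@M-γ-CD replicate 1 lay with the controls and the other treated arrays above them. The difference was 0.15 (SE 0.17), with an interval of 0.829- to 1.48-fold. Erbb3, the receptor with a weak kinase, read 3.67, 4.12 and 3.87 in RG@M-γ-CD and 3.84, 3.88 and 3.72 in PBS. Both the lowest and the highest array were treated ones. The difference was 0.076 (SE 0.17), or 0.790- to 1.41-fold. Across the receptors the intervals run from 0.650- to 1.48-fold, so that a fold of 2 in either direction lies outside them.

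Among the ligands, the differences between mice of 1 group were wider than the differences between groups. Areg, which encodes amphiregulin, a ligand of EGFR, read 1.94, 2.02 and 1.78 in RG@M-γ-CD and 0.78, 2.11 and 2.30 in PBS. PBS replicate 1 lay far below the other 5 arrays, which were close together, and without it the difference of 0.19 (SE 0.40) became -0.29. The interval with all arrays was 0.582- to 2.23-fold.

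Ereg, which encodes epiregulin, a ligand of EGFR and ERBB4, had the widest spread of the 9. It read 2.08, -0.52 and 0.53 in RG@M-γ-CD and -0.88, 0.91 and 1.30 in PBS. The highest array was treated and the lowest was a control, 7.79-fold apart, and the groups overlapped. The means of 0.70 ± 1.31 and 0.44 ± 1.16 (SD, n = 3 each) differed by 0.26 (SE 0.81). The interval reached from 0.311- to 4.58-fold. The sign turned without the highest array, RG@M-γ-CD replicate 1 (-0.44), and also without the lowest, PBS replicate 1 (-0.41).

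Btc, which encodes betacellulin, another ligand of EGFR and ERBB4, moved with Ereg from array to array. It read -0.46, -1.45 and -1.02 in RG@M-γ-CD and -1.64, -1.08 and -0.50 in PBS, with the same arrays at the low end, PBS replicate 1 and RG@M-γ-CD replicate 2, as for Ereg. The groups overlapped, with a difference of 0.098 (SE 0.37). This sign also turned without the first treated array (-0.16) or without the first control array (-0.19). Across the 6 arrays Btc and Ereg correlated at r = 0.959, and Areg with Ereg at 0.641. Genes on other chromosomes followed Ereg more closely than Areg did, Egfr at 0.698 and the brighter Tgfa probe at 0.743, whereas the other Tgfa probe stood at -0.881. These are descriptions of 6 points that share their arrays and their scaling.

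Hbegf, which encodes a heparin-binding ligand of EGFR and ERBB4, was set apart by a single mouse. It read 1.95, 3.75 and 1.77 in RG@M-γ-CD and 1.90, 1.94 and 2.30 in PBS. RG@M-γ-CD replicate 2 stood well above all others and the remaining 5 arrays overlapped. The difference of 0.44 (SE 0.53), the largest of the 9 in size, became -0.19 without that array. Egf, the founding ligand of the family, was also highest on it, reading -2.89, -0.49 and -1.88 in RG@M-γ-CD and -2.03, -1.67 and -1.81 in PBS. Its lowest array was RG@M-γ-CD replicate 1, so the treated arrays enclosed all controls. The difference of 0.082 (SE 0.57) became -0.55 without RG@M-γ-CD replicate 2.

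Tgfa, which encodes transforming growth factor α, a ligand of EGFR, ran the other way on these arrays. It read -1.25, -2.72 and -1.83 in RG@M-γ-CD and -1.89, -2.04 and -1.53 in PBS. RG@M-γ-CD replicate 1 was the highest array and RG@M-γ-CD replicate 2 the lowest. The groups differed by -0.11 (SE 0.38), and by 0.28 without RG@M-γ-CD replicate 2.

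**Figure D2:**
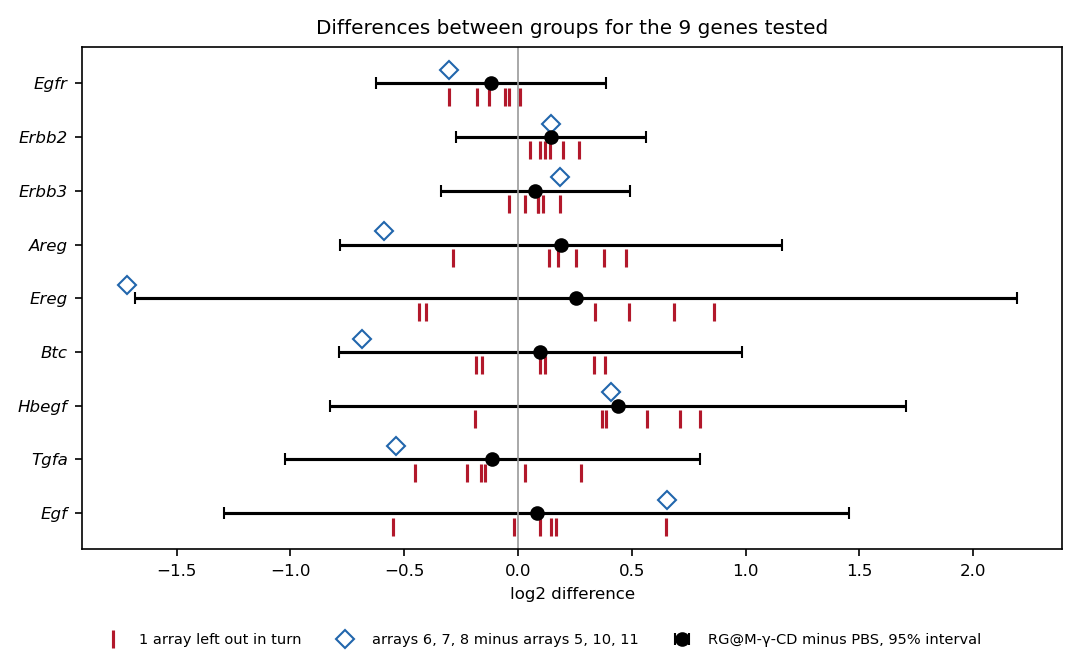
Log2 difference of RG@M-γ-CD minus PBS for the 9 genes tested (black points, with the 95% interval from limma), the same difference with 1 array left out in turn (red ticks), and arrays 6, 7 and 8 minus arrays 5, 10 and 11 (blue diamonds). All 9 intervals cross 0, and among the red ticks those of Erbb2 alone all stay on the same side of 0.

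The spread of each gene over all 6 arrays, whatever the group, separated the receptors from the ligands. The SD over the 6 arrays was 0.23 for Egfr, 0.17 for Erbb2 and 0.16 for Erbb3, all below the median of 0.27 over all genes tested. Those of the ligands were 0.48 for Btc, 0.50 for Tgfa, 0.54 for Areg, 0.75 for Hbegf, 0.77 for Egf and 1.11 for Ereg, all above it. Ereg lay at the 97.2 percentile of all genes tested. Dim probes vary more on arrays, so all genes were also cut by mean intensity into 10 bins, and each member was set among the 1909 genes of its own bin. There Ereg lay at the 98.2 percentile, Hbegf at 95.4, Areg at 90.5 and Egf at 82, with Btc at 72.8 and Tgfa at 64.2. Egfr lay at 58.1, Erbb2 at 31.2 and Erbb3 at 26.1. The difference between receptors and ligands was not tested.

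**Figure D3:**
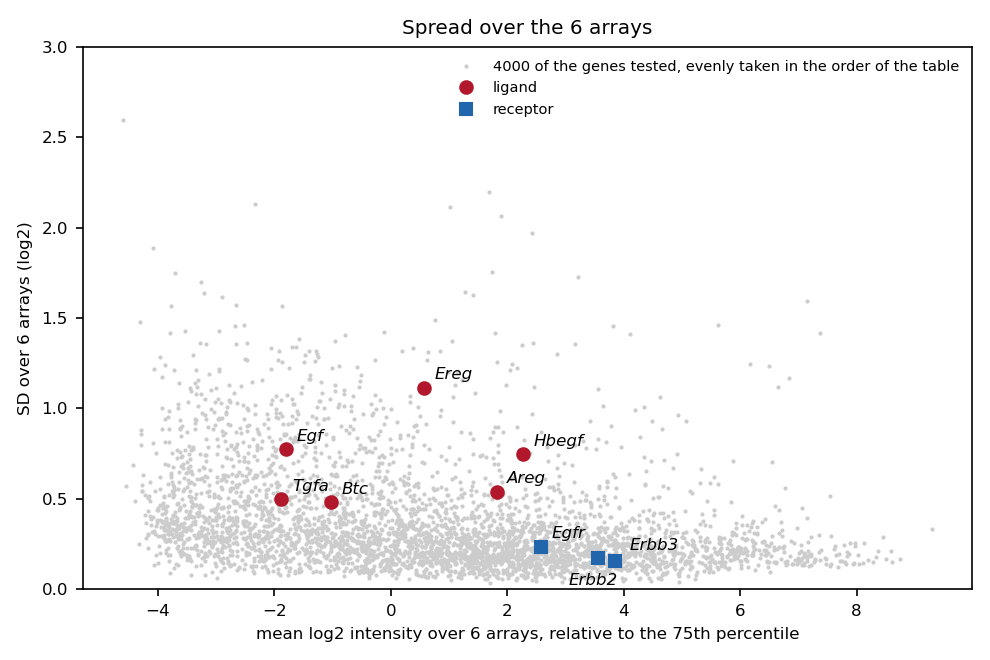
SD over the 6 arrays against mean log2 intensity, relative to the 75th percentile of each array, for 4000 of the genes tested (grey), the 6 ligand genes tested (red circles) and the 3 receptor genes (blue squares). The receptors lie at SDs of 0.16 to 0.23 and the ligands at 0.48 to 1.11.

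Where a gene had more than 1 usable probe, the probes of the receptors followed each other and those of Tgfa did not. The 2 probes of Erbb2 correlated at r = 0.965 over the 6 arrays and those of Erbb3 at 0.811, and their second probes gave differences of 0.14 (SE 0.15) and 0.097 (SE 0.20). The 3 Egfr probes correlated at 0.441 to 0.92. Their differences were -0.12 for the probe tested above, 0.019 (SE 0.20) for A_52_P56471 and -0.34 (SE 0.24) for A_52_P674338, which read -0.77, -1.05 and -0.61 in RG@M-γ-CD and -0.85, -0.43 and -0.12 in PBS. For none of these probes did the groups separate. The second Hbegf probe, A_55_P2731956, also peaked in RG@M-γ-CD replicate 2, at 0.33 against values of -3.92 to -2.21 on the other 5 arrays. Its difference was 1.27 (SE 0.97). The second Tgfa probe, A_55_P2935800, is annotated to another transcript than the first, and the 2 correlated at r = -0.516. It read -3.40, -1.74 and -2.76 in RG@M-γ-CD and -1.42, -3.76 and -3.02 in PBS, a difference of 0.10 (SE 0.68). Of the 15 probes tested, 0 passed an adjusted p of 0.05 and 0 separated the groups, against 0% and 4.52% of 28291 probes.

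**Figure D4:**
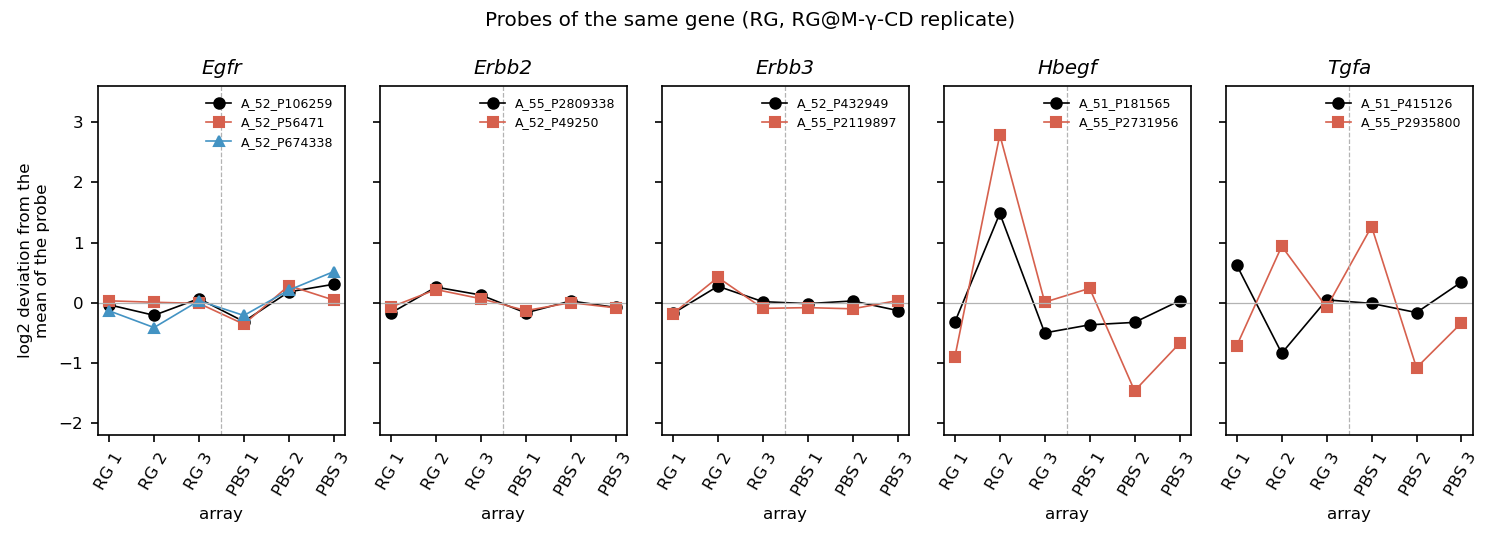
Log2 deviation of each array from the mean of the probe, for the 5 genes with more than 1 probe past the filter, RG@M-γ-CD replicates to the left and PBS replicates to the right of the dashed line. The Erbb2 probes (r = 0.965) run together, both Hbegf probes peak in RG@M-γ-CD replicate 2, and the Tgfa probes (r = -0.516) run apart.

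Under the other grouping, arrays 6, 7 and 8 minus arrays 5, 10 and 11, the ligands that moved together were lower in the first set. So were 5 of the 9 members in all, against 63.8% of all genes tested in that grouping. Ereg differed by -1.72 (SE 0.44, unadjusted p = 0.00705, limma adjusted p = 0.297), and its 3 arrays all lay below the others. Btc differed by -0.69 (unadjusted p = 0.0272, limma adjusted p = 0.297), Areg by -0.59, Tgfa by -0.53 and Egfr by -0.30. Egf differed by 0.66, Hbegf by 0.41, Erbb3 by 0.18 and Erbb2 by 0.15. The second Tgfa probe, A_55_P2935800, went the other way from the first, by 1.42, with all 3 arrays above the others. The second Hbegf probe, A_55_P2731956, was likewise higher in all 3, by 2.02, and Egfr probe A_52_P56471 was lower in all 3, by -0.24. With the Ereg probe, 4 of the 15 probes tested separated the sets, against 25.2% of all 28291 probes. Again 0 of 9 were past the adjusted threshold in limma, 2 of 9 lay below an unadjusted p of 0.05, and 1 of 9 separated the sets. Over all 19298 genes tested in that grouping these shares were 0.0259%, 16.5% and 25.5%, and the median log2 difference was -0.12, and the members' counts of 1 or 2 of 9 lie near these shares. A grouping taken from a clustering of these same arrays can separate many genes by its making, and whether it did so here was not tested. With both arrays that change sides left out, which leaves 2 against 2, Ereg differed by -1.10 (unadjusted p = 0.0408, limma adjusted p = 0.403), Btc by -0.44 and Areg by -0.30. In that limma fit, 1 of 9 members and 2207 of all 19090 genes lay below an unadjusted p of 0.05. The median log2 difference over all genes was -0.094 there.

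The slide row bears on Areg, Ereg, Btc and Egfr. With the row as a covariate, the difference rests on the 3 treated arrays against PBS replicate 1 alone. On that array these genes were lowest. Areg then differed by 1.14, Ereg by 1.58, Btc by 0.67 and Egfr by 0.25, while the median over all genes moved to 0.097. The lone control is assumed there to vary like the other arrays.

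The machinery around the receptors was read from 66 genes of the pathway, of which 63 were tested and Vav2, Nrg2 and Nrg3 did not pass the filter on dim probes. Treated means were higher for 29 and lower for 34, with a median log2 difference of -0.0054, and 0 of 63 were past the adjusted threshold in limma. At an unadjusted p below 0.05, 1 was higher (0.864% of all genes were) and 1 was lower (1.33% of all genes were). The gene on the higher side was Timp3, an inhibitor of the ADAM proteases that release the ligands. Timp3 read 3.66, 3.27 and 3.21 in RG@M-γ-CD and 2.65, 3.12 and 2.69 in PBS. All treated arrays lay above all controls, by 0.56 on average (SE 0.21, unadjusted p = 0.0363, limma adjusted p = 0.99998). With RG@M-γ-CD replicate 1 left out this was 0.41 (unadjusted p = 0.0942), and under the other grouping it was -0.12. The gene on the lower side was Pik3cd, a catalytic PI3K subunit found mainly in leukocytes, which read -2.42, -2.51 and -2.67 in RG@M-γ-CD and -1.54, -1.99 and -2.30 in PBS. Its treated arrays all lay below the controls, by -0.59 (SE 0.23, unadjusted p = 0.0373, limma adjusted p = 0.99998), and under the other grouping the difference was -0.0054.

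By role, the 8 genes of ligand shedding and trafficking had a median difference of -0.15 and ran from -0.38 for Rhbdf2, which carries ADAM17 to the cell surface, to Timp3. Rhbdf2 read 1.02, 0.63 and 0.66 in RG@M-γ-CD and 1.14, 1.04 and 1.27 in PBS, with all treated arrays below the controls (unadjusted p = 0.0717). Of the other ERBB receptor and the neuregulins, the ligands of ERBB3 and ERBB4, 3 were tested, from -0.47 for Nrg1 to 0.39 for Nrg4. Nrg1 read 2.06, -0.53 and 1.68 in RG@M-γ-CD and 1.11, 1.68 and 1.84 in PBS, with replicate 2 alone below all controls. Nrg4 read -2.12, -4.06 and -3.98 in RG@M-γ-CD and -3.86, -3.40 and -4.06 in PBS, with replicate 1 alone above all controls. With RG@M-γ-CD replicate 1 left out, Nrg1 stood at -0.97 and Nrg4 turned to -0.25, and under the other grouping they stood at -1.11 and -0.78. The 14 tested adaptors and effectors at the receptor had a median of 0.015 and ran from -0.36 for Eps8, an actin-linked EGFR substrate, to 0.32 for Gab1, a docking protein.

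The 12 genes of the RAS, RAF, MEK and ERK cascade had a median of 0.026, from -0.26 for the scaffold Ksr1 to 0.29 for Map2k1, which encodes MEK1. The 11 genes of PI3K and AKT had a median of -0.045, with Pik3cd lowest. The 15 inhibitors and degradation factors of the receptors had a median of -0.015, from -0.67 for Sh3kbp1, which helps to internalise the receptor, to 0.29 for Lrig1, which promotes its degradation. Separated groups were found in 5 of the 63 genes, against 4.57% of all genes: Timp3, Pik3cd, Rhbdf2, Lrig1 and Lrig2, the last of which was named after its values were seen. Under the other grouping, Lrig1 went from 0.29 to -0.048 and Lrig2 from 0.11 to -0.023.

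The tissue label was checked against cell type markers. All 10 epithelial markers, among them Epcam, Cdh1, Vil1 and Cdx2, passed the filter, and their summed log2 level was 9.97 to 10.3 in RG@M-γ-CD and 9.89 to 10.4 in PBS. The markers of other cells varied more from array to array. All 6 smooth muscle markers had higher means in RG@M-γ-CD (median 0.90), but their summed level ran from 6.61 to 9.59 there and from 7.56 to 7.78 in PBS, with RG@M-γ-CD replicate 1 below all controls. Of 6 neutrophil markers, 1 was higher (median -1.43, 5.55 to 6.64 against 5.89 to 6.70). Csf3r, the higher one, dominated that sum in treated replicates 2 and 3, with 6.25 and 5.30 against summed levels of 6.32 and 5.55. On those arrays the other neutrophil markers lay below all controls, as S100a9 did (5.73, 0.95 and 2.02 by replicate against 4.83, 4.07 and 5.06). Of 7 macrophage markers, 0 were higher (median -0.47, 4.37 to 5.10 against 4.90 to 5.16). The 8 fibroblast markers had a median of 0.047, the 6 endothelial markers 0.32, and the 6 markers of enteric neurons and glia 0.56. Among the tested markers of lymphoid cells, the median was -0.53 for 4 T cell and -0.47 for 5 B and plasma cell markers, and 5 mast cell markers stood at -0.037. Squamous markers (5 of 8 tested, without Krt5, Krt4 and Dsg3) stood at -0.52. Exocrine pancreas markers (3 of 8 tested, with Pnlip and Cpa1 among those that did not pass the filter) stood at -2.16, and at -0.77 without PBS replicate 2. These 3 did not go the same way, with Cela1 at 0.17, Ctrb1 at -2.16 and Prss2 at -4.08. With RG@M-γ-CD replicate 1 left out, the median was 1.82 for smooth muscle and 1.29 for enteric neurons and glia and -2.73 for neutrophils. The medians of the epithelial, fibroblast, mast cell and B and plasma cell lists changed sign with the array left out.

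The members followed some of these lists across the arrays. Egfr followed the mean deviation of the epithelial list (r = 0.948 over 6 arrays) and Areg did so less closely (r = 0.756). The closest relation of Areg was an opposite one, to the B and plasma cell list (r = -0.849), which Btc shared (r = -0.83). Egfr, Areg and the epithelial list were all lowest in PBS replicate 1. Erbb2 ran opposite to the neutrophil list (r = -0.974) and the macrophage list (r = -0.951). It ran with the fibroblast list (r = 0.858), the list of enteric neurons and glia (r = 0.829) and the smooth muscle list (r = 0.825). Erbb3 ran opposite to the neutrophil list (r = -0.863) and as closely with the endothelial list (r = 0.863). These correlations are over 6 points that share their array and scaling, and the part of cell composition in the members' values was not tested.

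**Figure D5:**
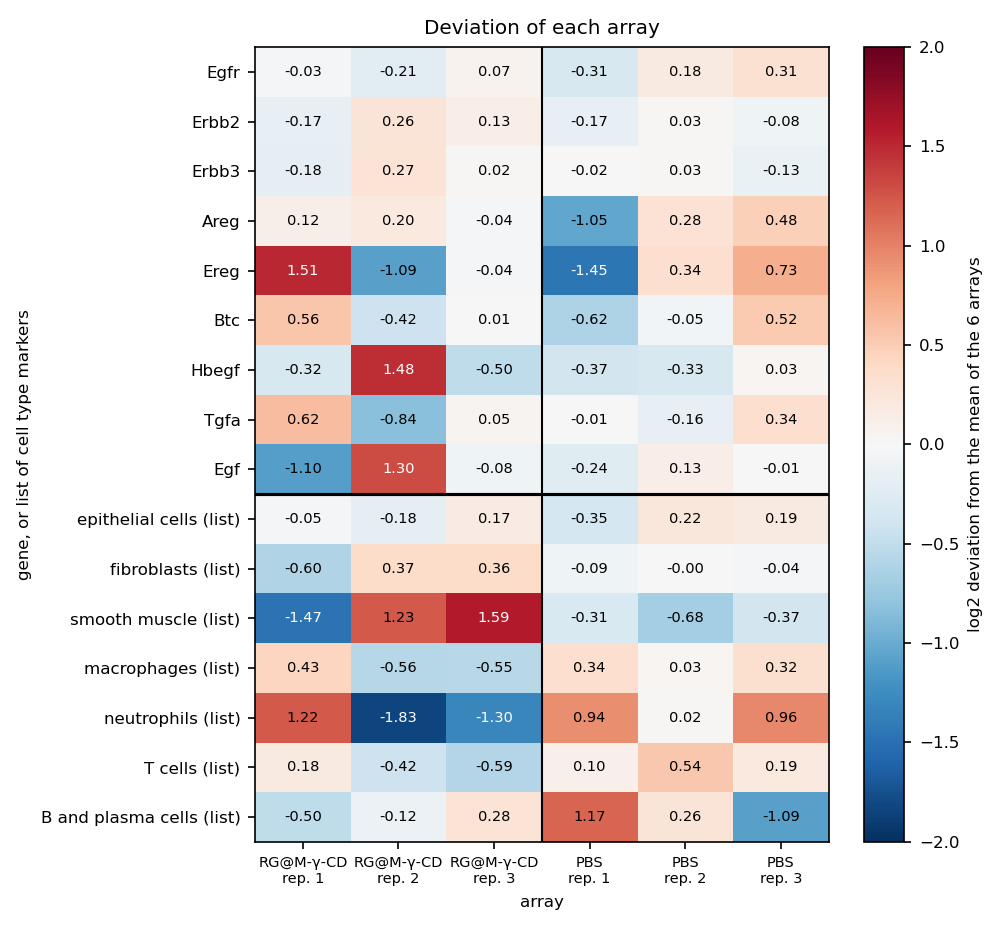
Log2 deviation of each array from the mean of the 6 arrays, for the 9 genes tested (above the thick line) and for the mean over 7 lists of cell type markers (below it), with red above and blue below the mean and the vertical line between RG@M-γ-CD and PBS. Ereg is at 1.51 in RG@M-γ-CD replicate 1 and at -1.45 in PBS replicate 1, and the neutrophil list is at 1.22 in RG@M-γ-CD replicate 1 and at -1.83 in RG@M-γ-CD replicate 2.

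Within the family, the strongest relation over the 6 arrays was an opposite one between Erbb3 and Tgfa (r = -0.989), and Egf ran with Erbb3 (r = 0.918) and against Tgfa (r = -0.938). Both relations of Tgfa belong to its brighter probe, since the second probe, A_55_P2935800, ran with Erbb3 (r = 0.513) and with Egf (r = 0.442). Erbb2 and Erbb3 ran together at r = 0.862. Among all genes tested, those most like Areg were Cyp4f16 (r = 0.994), Coa5 (0.986) and 3830406C13Rik (0.984), and 31 genes exceeded 0.95. Those most like Ereg were Ccdc112 (r = 0.995), an intergenic transcript on probe A_30_P01025092 (0.994) and Slc35a5 (0.991), and 207 genes exceeded 0.95. These too are descriptions of 6 arrays.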

How the data were processed

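RNA of 6 colon tissues with tumors was labelled with Cy3 and hybridised to Agilent one-color mouse arrays, 1 array per mouse. The intensity values deposited by the authors are the scanner software's output (Agilent Feature Extraction 10.7.1.1 in the submitters' processing notes), corrected for background and not normalized between arrays. The authors also deposited a table of log2 values per probe, used as an alternative. Its columns have the same distribution and were read as quantile normalized.

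Groups follow the deposited labels. Files were read in R 4.3.3 with the package data.table (version 1.17.8). Control spots were dropped, as were 790 gene spots that the scanner had marked as outliers. Log2 intensities were averaged over the spots of a probe and set relative to the 75th percentile of gene probes on that array. Symbols came from the reference table by accession for 32994 probes and from the scanner output for the other 23611. A probe was tested if it was well above background (in at least 0.5 of its spots) on every array of 1 group or both, and a gene by its brightest such probe, with limma 3.58.1 (lmFit and eBayes) and Benjamini-Hochberg adjustment over 19090 genes. The precision is limited by 3 arrays per group. The code was tested on simulated data.

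The members and the gene lists were chosen with earlier results of these data known. All members are named. Pathway genes are named where they lie below an unadjusted p of 0.05 or have the largest rise or fall of their sublist (1 such gene is not reported here), and for Areg and Ereg the 3 genes of highest r. The alternatives were quantile normalization, normexp with an offset of 50, the value table, 2 other filters, the mean of a gene's probes, outliers kept, the replicate block, the methods' t-test (fold change of 2, p of 0.05), slide row, the heat map's grouping and arrays left out. Probe positions are on mm9 as in the scanner output, and promoters are from RefSeq (GRCm38.p6).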

Additional observations from a re-analysis of the deposited data

How the results depend on the processing

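The count of EGF receptor and ligand genes past an adjusted p of 0.05 was 0 under all 18 alternatives run. Erbb2 kept its direction in all of them. The other members turned their sign in at least 1, and only through a change of the arrays used or of the covariates. Under the grouping of arrays 6, 7 and 8 against 5, 10 and 11, Ereg was at -1.72, Areg at -0.59 and Btc at -0.69. With both arrays that change sides left out, they were at -1.10, -0.30 and -0.44. With the slide row as covariate, Egfr was at 0.25. Leaving out each array in turn gave log2 differences of -0.30 to 0.0077 for Egfr, -0.041 to 0.18 for Erbb3, -0.44 to 0.86 for Ereg, -0.29 to 0.48 for Areg, -0.19 to 0.80 for Hbegf, -0.45 to 0.28 for Tgfa, -0.19 to 0.38 for Btc and -0.55 to 0.65 for Egf. Over all genes, 0 passed the adjusted threshold except under the other grouping (5) and in leaving out single arrays (0 to 168, the highest without RG@M-γ-CD replicate 1). The 107 genes at a fold change of 2 and an unadjusted p of 0.05 became 46 with normexp, 327 without the filter, 45 with the methods' t-test, 303 with the slide row, 1133 under the other grouping, 1034 with both arrays left out and 85 to 983 with 1 array left out. The cause of these shifts was not tested, although more genes are tested without the filter. Omitting RG@M-γ-CD replicate 1 gave the count of 983. Omitting any other single array, which leaves equally many arrays, gave counts of 85 to 144.

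The replicate numbers were not taken to pair the mice. After subtraction of each gene's group mean, the correlations of same-numbered arrays were -0.25, -0.233 and 0.136. Within a group of 3 arrays such deviations sum to 0, so these correlations cannot settle whether the mice were paired. With the replicate block, 0 genes passed the adjusted threshold and 145 were at a fold change of 2, and the members' differences did not change sign. Signal limits Epgn, which stayed near background on all 6 arrays.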
